A study of Sinibotia superciliaris with 2 samples.

Results

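Zona pellucida genes encode the glycoproteins of the envelope around the egg. In the striped skin of the freshwater loach Sinibotia superciliaris (Botia superciliaris in older usage), 3 of 124650 unigenes carried such a name. Only 5675 unigenes had any protein name in the annotation used, and zona pellucida genes among the others were not analysed here. A unigene is a gene of the files, known by an identifier and not by a genome position, and the members are all unigenes whose best Swiss-Prot protein match has a name that starts with ZP and a digit. The family itself was chosen by its measured levels in these libraries, because ZP3 and ZP4 were among the genes furthest toward black skin. Such a name without its species part is called a stem here. The stem ZP3 held 1 unigene, c104631_g1, and the stem ZP4 held 2, c103799_g1 and c105920_g1.

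RNA was sequenced from 1 library of black skin and 1 library of yellow skin of wild-caught adult fish. According to the labels, skin of both colours was taken from 6 individuals with an average weight of 6.25 ± 0.30 g and length of 8.75 ± 0.20 cm, and was frozen in liquid nitrogen. Left unsaid are the meaning of the ± values, whether RNA of the 6 fish was pooled, and the sex of the fish. With 1 library per colour nothing below has a replicate check, no test across fish could be made, and every difference is a difference between these libraries.

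An egg envelope, called zona pellucida in mammals and chorion in fish, is built from filaments of proteins that share a zona pellucida domain, the module through which they polymerise. The precursors carry a signal peptide, pass through the secretory pathway and are cut by furin-like proteases before they assemble. ZP3-type proteins have the zona pellucida domain as their main module, while proteins of the ZP4 and fish ZP2 type carry a trefoil domain in front of it. In zebrafish and carp these genes are known for expression in the ovary, and in several other teleosts also for production in the liver under oestrogen. They are not commonly described as skin genes.

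The database matches of all 3 unigenes pointed to fish egg-envelope genes. The members were chosen by a protein match of the same sequences, so these matches are not separate support for the name. The best match of c104631_g1 in the protein database NR was zona pellucida 3 of the rare minnow Gobiocypris rarus, with an alignment score of 1541. For c105920_g1 it was ZP2 of carp (Cyprinus carpio), with a score of 1555. For c103799_g1 it was zebrafish zona pellucida glycoprotein 2, like 1, with a score of 1434. Swiss-Prot instead gave chicken ZP3 for c104631_g1 and pig ZP4 for both of the others, with lower scores of 265, 258 and 259 in the order c104631_g1, c105920_g1 and c103799_g1. The name ZP4 thus comes from a mammalian entry, while the nearest fish proteins are of the ZP2 type. No match establishes orthology, and reads of near-identical copies cannot be separated.

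Features of the predicted proteins were shared in part. The choice of members did not use them directly, but they come from the same sequences as the matches. The predicted coding stretch was 455 codons long in c104631_g1, 411 in c103799_g1 and 408 in c105920_g1. A signal peptide was predicted in each, over residues 1 to 26 with a score of 0.847 in c104631_g1, 1 to 25 with 0.807 in c103799_g1 and 1 to 23 with 0.702 in c105920_g1. The single transmembrane helix predicted in c104631_g1 (residues 7 to 24) and in c103799_g1 (residues 7 to 29) overlapped that signal peptide, and none was listed for c105920_g1. The Pfam entry listed was the zona pellucida domain for c104631_g1 and the trefoil domain for c103799_g1 and c105920_g1. The coding stretch lies on the plus strand of c103799_g1 from base 3 to 1235, so that its start is at the edge of the unigene. In c105920_g1 it lies on the minus strand from base 1226 to 3, so that its end is at the edge. Whether either is complete there is not known.

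All 3 unigenes were read more often in black than in yellow skin. Levels are in RPM (reads per library of 1000000 reads), and the 95% intervals beside them take a read pair as the unit and reflect counting error alone. ZP3, as c104631_g1, was at 29.3 RPM in black skin (interval 26.8 to 31.9) and at 6.16 RPM in yellow skin (5.10 to 7.38), from 1037 and 236 reads. Its level was thus 4.76-fold higher in the black library, with an interval of 3.89 to 5.86. The carp ZP2-like unigene c105920_g1 was at 25.0 RPM in black skin (22.8 to 27.5) and 7.77 RPM in yellow skin (6.58 to 9.13), from 886 and 298 reads, which is a 3.22-fold difference (2.67 to 3.90). The zebrafish zp2l1-like unigene c103799_g1 was at 19.9 RPM in black skin (17.8 to 22.1) and 5.43 RPM in yellow skin (4.44 to 6.58), from 703 and 208 reads, a 3.66-fold difference (2.93 to 4.60). For each unigene the interval of the black level lay wholly above that of the yellow level. The intervals of the 3 ratios overlapped one another, c104631_g1 and c105920_g1 only at their ends.

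Summed by stem, ZP4 was at 44.9 RPM in black and 13.2 RPM in yellow skin, or 3.40-fold higher in black (2.95 to 3.93) from 1589 and 506 reads. The 3 unigenes together were at 74.2 RPM in black skin (70.3 to 78.3) and 19.4 RPM in yellow skin (17.4 to 21.4), for a ratio of 3.83 (3.41 to 4.31). They made up 0.00742% of all black reads and 0.00194% of all yellow reads. In bulk skin, more cells that make these transcripts and more transcript per cell cannot be told apart.

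**Figure D1:**
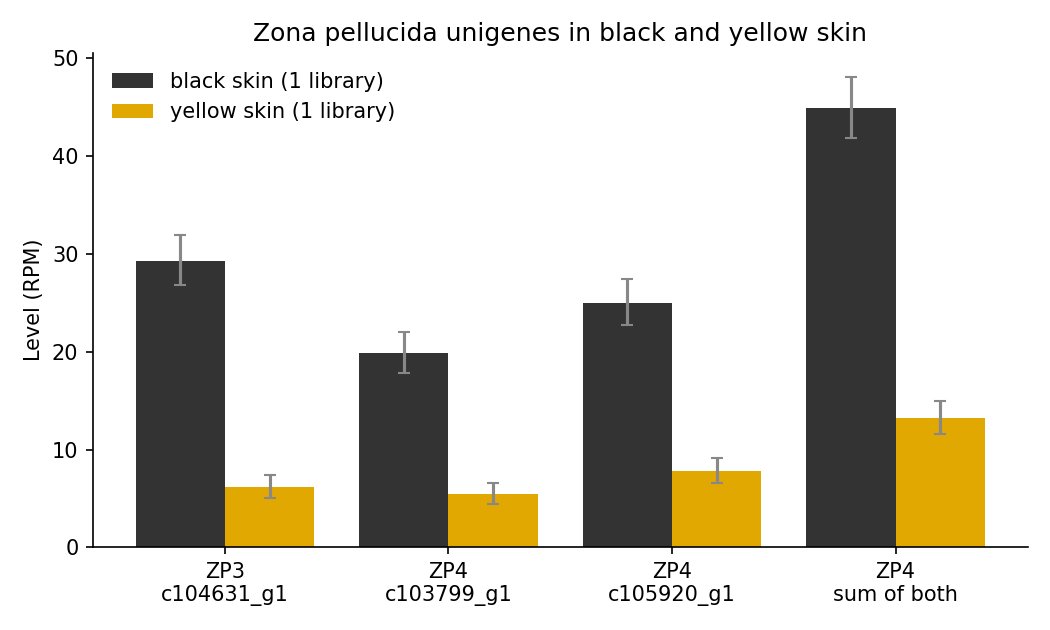
Level in RPM of the 3 zona pellucida unigenes and of the sum of both ZP4 unigenes in the black and the yellow library (1 library each); lines are 95% counting intervals. Each black bar stands above its yellow neighbour, with ZP3 at 29.3 against 6.16 RPM and the ZP4 sum at 44.9 against 13.2 RPM.

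These ratios are a description and not a finding of their own, because the members were selected on them. Among 10788 unigenes that averaged at least 10 RPM, ordered by the log2 ratio of (RPM + 1), c104631_g1 stood at rank 3, c103799_g1 at rank 10 and c105920_g1 at rank 14 from the black end. Over all 31795 unigenes with a mean of 1 RPM or more the ranks were 8, 24 and 34, with the melanophore genes TYRP1 and PMEL among those above them. Among the 2313 stems that averaged at least 10 RPM, which leaves out TYRP1 and PMEL, ZP3 stood at rank 1 and ZP4 at rank 3. The stem between them was DGAT2, an enzyme of triglyceride synthesis, with a log2 ratio of 1.80, and below ZP4 came MLRV, a regulatory myosin light chain, with 1.48. The log2 ratio was 2.08 for ZP3 and 1.69 for ZP4, against a median of 0.21 and a standard deviation across genes of 0.30 over all 3644 stems with a mean of at least 1 RPM. A unigene or stem is called here when it has that mean and differs at least 2-fold on the log2(RPM + 1) scale. All 3 zona pellucida unigenes were called as higher in black skin, as were 0.783% of 31795 unigenes tested (0.302% were called as higher in yellow), and both stems were called, as were 0.823% of the stems (0.137% as higher in yellow). By the stricter rule that the whole interval of the ratio lies beyond 2-fold, the 3 unigenes and both stems were called again as higher in black skin, beside 0.428% of the unigenes and 0.659% of the stems in that direction. With TMM scaling, which lowered the median log2 ratio of all stems from 0.21 to 0.03, the split of called unigenes moved from 249 higher in black and 96 higher in yellow to 129 and 172, and the log2 ratios of ZP3 and ZP4 were 1.91 and 1.52.

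**Figure D2:**
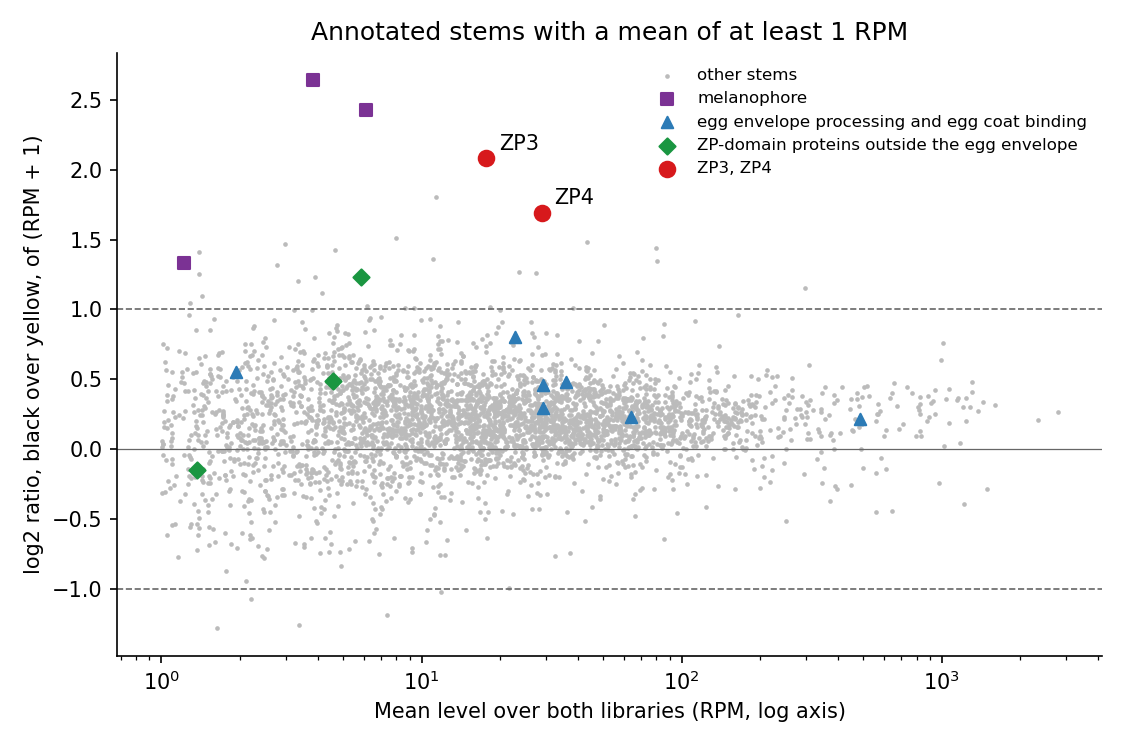
Each point is an annotated stem with a mean of at least 1 RPM; the x axis is the mean RPM of both libraries (log axis) and the y axis the log2 ratio of black over yellow of (RPM + 1), with dashed lines at 2-fold. ZP3 at 2.08 and ZP4 at 1.69 stand above the cloud of stems, whose median is 0.21.

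Each of the 3 unigenes held a large part of the zona pellucida RNA in both colours. ZP3 (c104631_g1) held 39.5% of the 2626 black zona pellucida reads (Clopper-Pearson interval 36.8 to 42.2) and 31.8% of the 742 yellow ones (27.1 to 36.8). The carp ZP2-like c105920_g1 held 33.7% in black (31.2 to 36.4) and 40.2% in yellow (35.1 to 45.3). The zp2l1-like c103799_g1 held 26.8% (24.4 to 29.3) and 28.0% (23.5 to 32.9). The share of c104631_g1 was thus larger in black skin and that of c105920_g1 larger in yellow skin, and the intervals of the colours overlapped or met at their ends in each case.

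**Figure D3:**
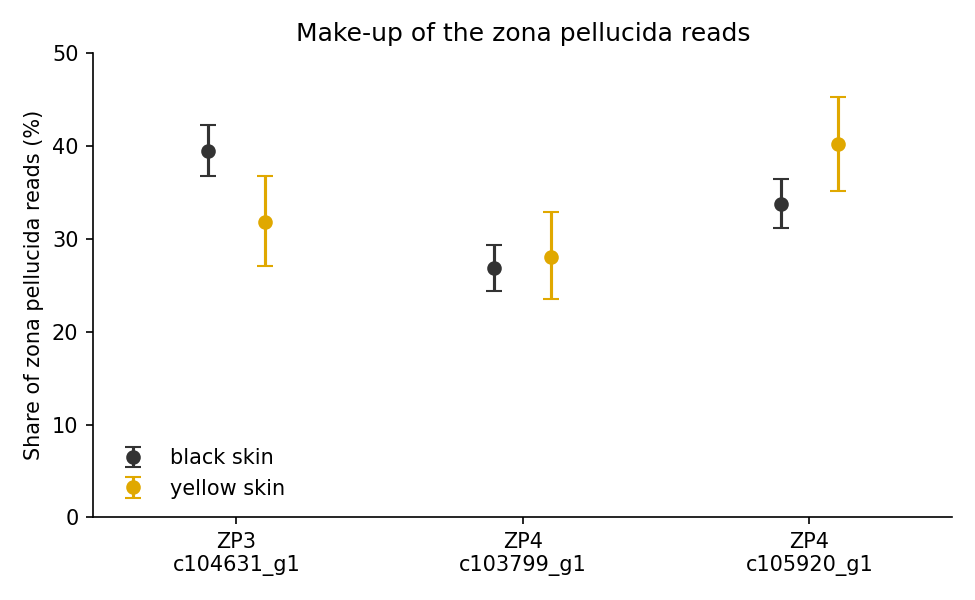
Share of the zona pellucida reads of each library (in %) that fell to each of the 3 unigenes, with 95% Clopper-Pearson intervals. ZP3 has the largest share in black skin (39.5%) and c105920_g1 the largest in yellow skin (40.2%).

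Levels of different genes were compared per kilobase of predicted coding sequence. In black skin c104631_g1 was at 21.5 RPM per coding kilobase, c105920_g1 at 20.4 and c103799_g1 at 16.1. In yellow skin the levels per coding kilobase were 4.51, 6.35 and 4.40 in the same order. In black skin the level of c104631_g1 was 1.05 times that of c105920_g1, with a counting interval of 0.923 to 1.19, so these neighbours in the order could not be separated. In yellow skin c105920_g1 was 1.41 times as high as c104631_g1 (1.10 to 1.81), and c104631_g1 and c103799_g1 could not be separated (ratio 1.02, 0.781 to 1.35). Against 5675 annotated unigenes with a predicted coding stretch, whose median was 7.57 RPM per coding kilobase in black and 6.48 in yellow skin, the 3 unigenes lay at percentiles 66.3 to 72.2 in the black library and 42.1 to 49.6 in the yellow library. Egg-envelope transcripts were thus above the middle of the annotated genes in black skin and just below it in yellow skin. Reads in untranslated parts also count toward these levels, and their lengths are not known here.

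The other genes of the egg, its envelope and its tissue came from lists of Swiss-Prot names. Over all 3644 stems, 0.823% were called as higher in black and 0.137% as higher in yellow skin. A short list without a called stem is near that share and is no result about its genes. The intervals of the ratios here and below hold for the scaling as deposited. TMM scaling shifts the log2 ratio of black over yellow by -0.186, and the intervals were not recomputed with it. An interval that begins close above 1 therefore need not exclude 1 under that scaling. Proteases and cross-linking enzymes that act on secreted coats, together with an egg coat binding enzyme, formed the list nearest in function. Of its 19 stems 8 were annotated and 7 had a mean of at least 1 RPM. None of the 7 was called, all 7 had a log2 ratio above 0, as had 2927 of all 3644 stems, and their median was 0.46 beside 0.21 over all stems. PCSK5, PCSK6 and FURIN are proprotein convertases, the protease family that cuts zona pellucida precursors. PCSK5 was at 69.3 RPM in black and 58.9 RPM in yellow skin, with a ratio of 1.18 (1.08 to 1.28). PCSK6 was at 42.1 and 29.8 RPM, a ratio of 1.41 (1.26 to 1.58). FURIN was low, at 2.49 and 1.38 RPM, with a ratio of 1.80 (1.09 to 3.03). TGM1, the transglutaminase that cross-links the outer layer of skin in mammals, had the most reads of the list, at 523 and 450 RPM, a ratio of 1.16 (1.13 to 1.20). F13A, the clotting transglutaminase factor XIII, had a ratio of 1.79 (1.55 to 2.06). The ratio of B4GT1, a galactosyltransferase that binds the egg coat on mouse sperm, was 1.39 (1.23 to 1.57). PCSK7, another convertase, had a ratio of 1.23 (1.09 to 1.39). TGM2, a tissue transglutaminase, was below the minimum with 25 black and 5 yellow reads. None of the intervals of the 7 measured members reached the 4.76 of ZP3, and that of FURIN alone reached into the interval of the ZP4 ratio. Because ZP3 and ZP4 were chosen for their high ratios, ratios below theirs are no result about the genes of this list.

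Genes that mark oocytes and germ cells were mostly unnamed in the annotation used. Of 37 stems listed, 2 were annotated, and the others, among them GDF9, BMP15, ZAR1, FIGLA and DAZL, were not analysed here. DDX4, the germ cell helicase vasa, was at 6.52 RPM in black and 4.56 RPM in yellow skin, with a ratio of 1.43 (1.07 to 1.91), and was not called. That interval begins close above 1 and was not recomputed with TMM scaling. TDRD9, a germ line helicase, was near the limit of detection with 6 black and 7 yellow reads. The summed level of the list was 6.69 RPM in black and 4.75 RPM in yellow skin. The list named a germ cell Y-box gene as YBOX2, and the annotated stem YBX2A was outside the list and its sum. YBX2A was at 21.1 RPM in black and 17.2 RPM in yellow skin, was not called, and is described under the other observations. Neither of these defining germ cell genes was at 0, and their part in the zona pellucida signal was not tested. Per coding kilobase DDX4 was at 7.09 RPM in black and 4.96 RPM in yellow skin, so that it lay below the 3 zona pellucida unigenes in black skin and within their range in yellow skin.

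The cells around the oocyte and their hormone system gave 3 annotated stems of 19, all above the minimum and none called, with a median log2 ratio of 0.28. INHBA, an activin subunit, was at 7.99 RPM in black and 6.42 RPM in yellow skin, with a ratio of 1.25 whose interval of 0.971 to 1.60 includes no difference. LSHR, the luteinising hormone receptor, was at 4.18 and 2.48 RPM, a ratio of 1.69 (1.16 to 2.48). FOXL2, a forkhead factor of ovarian follicle cells, went the other way, at 1.55 RPM in black and 3.39 RPM in yellow skin, which is 2.18-fold higher in yellow (1.38 to 3.54), while its log2(RPM + 1) ratio of -0.78 was short of 2-fold. Its best match in NR was an uncharacterised zebrafish protein. Of 18 liver and yolk precursor stems only ALBU, serum albumin, was annotated, at 2.57 and 1.64 RPM with a ratio of 1.56 (0.972 to 2.55). Both ALBU unigenes had pig albumin and no fish protein as their best match in NR, so that they are uncertain as transcripts of the loach. Vitellogenins and the oestrogen receptors were not analysed here.

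Proteins with a zona pellucida domain also occur outside the egg. The Pfam zona pellucida domain was listed for 2 unigenes in all, c104631_g1 and c107106_g1. The latter is TGBR3, a co-receptor for TGF-beta, at 5.51 RPM in black and 3.65 RPM in yellow skin, with a ratio of 1.51 (1.10 to 2.08). The trefoil domain was listed for 4 unigenes, both of ZP4 and another 2 matched to LYAG, a lysosomal glucosidase. These 2 had ratios of 1.19 (0.984 to 1.44) and 1.42 (1.12 to 1.81). The ZP4 unigenes were not among those listed with the zona pellucida domain, although proteins of their type carry it. A missing listing therefore does not show that the domain is absent. Of 11 stems listed for such proteins, 3 were annotated, with a median log2 ratio of 0.49. Of these 1 was called, as higher in black skin, as were 0.823% of all stems. The called stem was UROM, named after the urinary protein uromodulin, at 8.59 RPM in black and 3.08 RPM in yellow skin, with a ratio of 2.79 (2.05 to 3.84). The Pfam entry listed for its unigene was C1q and its best match in NR an uncharacterised zebrafish protein, so that the data do not show it to be a zona pellucida domain gene. DMBT1, a mucosal scavenger protein, had 44 reads in black and 57 in yellow skin, for a ratio of 0.836 (0.457 to 1.51). Its 2 unigenes went opposite ways. Per coding kilobase, c104404_g2 was at 1.17 RPM in black and 2.70 RPM in yellow skin, and c82039_g2 at 1.255 and 0.105 RPM. The Pfam entry listed for c104404_g2 was SRCR, and neither unigene was listed with the zona pellucida domain.

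Both libraries carried epithelial genes. Of 25 keratinocyte stems listed 5 were annotated, and the listed keratins and P63 were not among them. All 5 were above the minimum, with a median log2 ratio of 0.31 and none called. CADH1, the epithelial cadherin, was at 340 RPM in black and 273 RPM in yellow skin, and EVPL, the cornified envelope protein envoplakin, at 312 and 296 RPM. The log2 ratio of EVPL was 0.07, and it fell below 0 with TMM scaling, when 4 of the 5 keratinocyte stems were above 0. The melanophore genes of the list that were annotated followed the colour of the labels. Of 12 stems listed 4 were annotated, with a summed level of 21.5 RPM in black and 1.96 RPM in yellow skin. Of the 4, 3 were above the minimum, and all 3 were called as higher in black skin, beside 0.823% of all stems. The list named the receptor KIT, and the annotated stem KITA was outside the list and its sum. KITA had a mean of 78.6 RPM and a log2 ratio of 0.47, short of 2-fold, so the count and the sum hold only for the listed names. PMEL, the fibril protein of pigment granules, had a ratio of 8.94 (5.81 to 14.4) and TYRP1, an enzyme of melanin synthesis, one of 21.7 (9.96 to 57.3). The interval of PMEL began at the upper end of that of ZP3, and that of TYRP1 lay wholly above it. Of 21 skeletal muscle stems listed 9 were annotated, with a summed level of 3866 RPM in black and 4444 RPM in yellow skin. Most of that sum came from the enzymes ALDOA, ENOB, PGAM2 and PYGM and from ACTS, so it is no measure of muscle RNA. Of the sarcomere genes, TITIN was at 28.7 and 24.3 RPM, MYH4 at 17.2 and 23.7 RPM and NEBU at 6.89 and 6.91 RPM. The median log2 ratio of the 9 was -0.24, with 3 of them above 0. ALDOA, a glycolytic enzyme, was at 1339 and 1636 RPM, and ENOB, muscle enolase, at 891 and 1056 RPM. ACTS, named after skeletal actin, was at 594 RPM in black and 456 RPM in yellow skin, on the black side (ratio 1.30, 1.27 to 1.34). The best NR match of its unigene was a predicted smooth muscle actin, so that ACTS is uncertain as a skeletal muscle gene. The 1 stem of the 9 that was called, as higher in black skin, was AT2A1. Its name is that of the calcium pump of fast muscle. The best NR match of its unigene was a different zebrafish calcium pump, numbered 3, so that AT2A1 is uncertain as a muscle gene. TITIN was also on the black side (ratio 1.18, 1.04 to 1.34). On the yellow side was MYH4 (ratio 0.725, 0.625 to 0.84), whose unigene c106144_g2 had a predicted myosin-7 as best NR match, so its name is uncertain too. Outside the list, the myosin light chain stems MLRV and MYL4 had log2 ratios of 1.48 and 1.27, and the actinin ACTN2 one of -0.45. The count, sum and median of the muscle list thus hold only for the listed names. The part of melanophores, muscle or other cells in the zona pellucida levels was not tested.

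**Figure D4:**
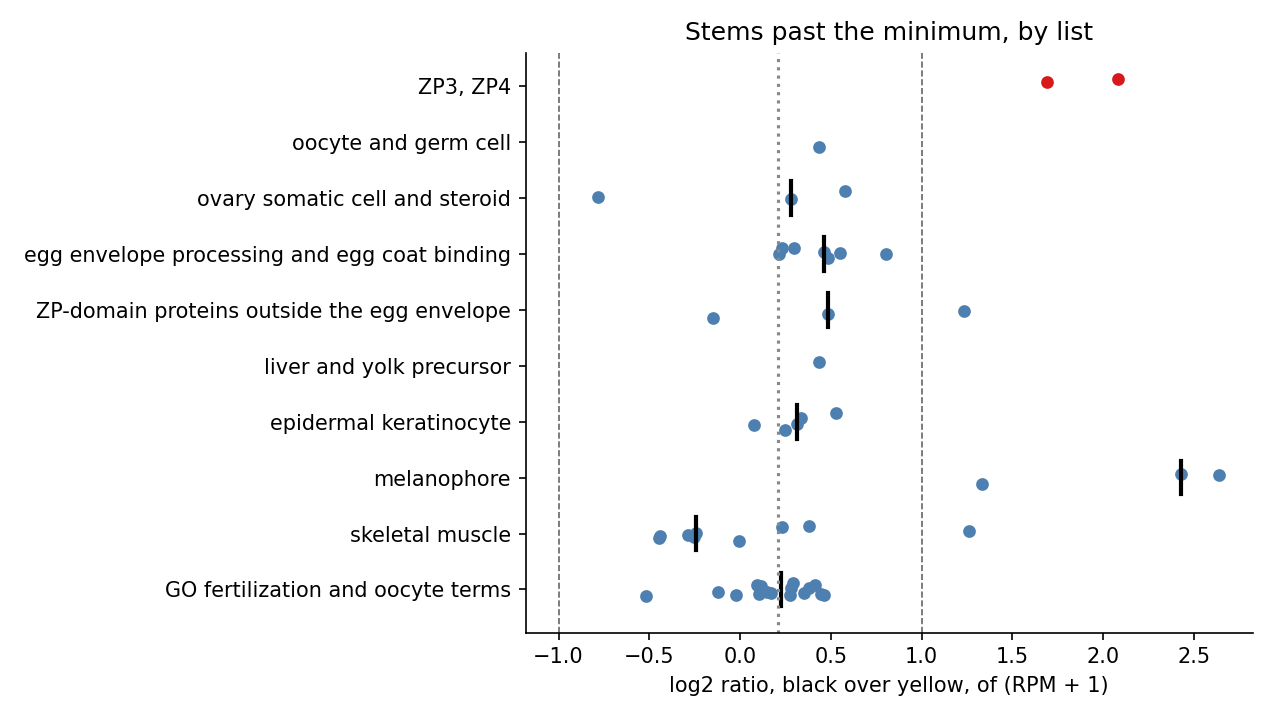
The log2 ratio of black over yellow of (RPM + 1) for every stem with a mean of at least 1 RPM, 1 row per gene list; short bars are list medians (3 or more stems), the dotted line is the median of all stems (0.21) and dashed lines mark 2-fold. ZP3 at 2.08 and ZP4 at 1.69 were chosen for such ratios, so their place beside the lists is a description. The highest value of the germ cell (1 stem), ovary (3 stems), egg envelope processing and fertilisation lists is the 0.80 of F13A. Higher values are in the rows of melanophore (up to 2.64), skeletal muscle (up to 1.26) and other ZP-domain proteins (up to 1.23). The 1.26 is that of AT2A1, uncertain as a muscle gene. The 1.23 is that of UROM, not shown to be a zona pellucida domain gene.

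The stems nearest to ZP3 and ZP4 in level and colour difference together are a description, since the members were chosen on these values. None of those named below was of the egg or ovary lists. These lists had only 2 oocyte, 3 ovary and 8 egg envelope processing stems annotated among 4058, so their absence here carries no information. Nearness was the Euclidean distance over log2(RPM + 1) in the 2 libraries among all 4058 stems, which is a likeness over 2 values only. Nearest to ZP3 was DGAT2, at 18.2 RPM in black and 4.49 RPM in yellow skin (distance 0.764), with a ratio of 4.05 (3.18 to 5.20). Then came SPTN2, a spectrin of the membrane skeleton, at 16.4 and 5.79 RPM (distance 0.802), and PPM1D, a protein phosphatase, at 18.3 and 9.26 RPM (distance 0.832). Nearest to ZP4 was the calcium pump AT2A1, uncertain as a muscle gene as above, at 39.3 and 15.8 RPM (distance 0.307), followed by MYL4, a myosin light chain, at 34.0 and 13.5 RPM (distance 0.393), and ANPRA, a natriuretic peptide receptor, at 34.6 and 17.9 RPM (distance 0.553). ZP3 and ZP4 were 1.16 apart by the same measure, with ZP4 taken as the sum of its 2 unigenes.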

How the data were processed

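The authors deposited 1 normalised signal per unigene and library, whose values are RPM as read from the values (sums of 999612 in black and 999622 in yellow skin). The deposited annotation holds protein matches with alignment scores, per the file headers. GRCz11 is named in the submitters' processing notes without a role; the sources used here name no assembler, aligner or counter. Repeated rows (4131 of 128781) were dropped. Whole reads were recovered from the value of 1 read (0.0282 and 0.0261 RPM; 0 reads carry 0.5 of a read), and 100% of values in each library were whole within 0.1 read, giving 35386871 black and 38323075 yellow reads. A count of 0 allows 3 reads, or 0.0847 and 0.0782 RPM. No count test was run on these reads, since 1 library per colour leaves no residual degrees of freedom.

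Intervals are Clopper-Pearson (ratios, conditional on the sum of both libraries, and shares) or exact Poisson (levels) at 95%. They take read pairs as the unit, on the assumption that mates were counted separately, and PCR copies are not allowed for. With single reads as the unit they are narrower, as 4.127 to 5.505 for the ZP3 ratio. Log2 ratios use a pseudocount of 1, which understates differences of low genes. The annotation covers 4.55% of unigenes (5676) and breaks off in its last record. A unigene's stem came from BLASTX, or BLASTP where empty, and values were summed over the 4058 stems. The design allowed for counts or normalised values, and the second case applied. Members and lists were chosen with earlier results of these data known. Named were all members, other unigenes with a zona pellucida domain, up to 4 stems per egg list and 2 per skin or muscle list by mean level, and the 3 stems nearest to ZP3 and to ZP4; further names were added after their values were seen. Python 3.11.15, scipy 1.17.1 and edgeR 4.0.16 (TMM factors only) were used. Calls and ratio intervals were tried on read pairs simulated with counting error alone, which the intervals assume. That trial says nothing of variation between fish, PCR copies, read recovery or annotation.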

Additional observations from a re-analysis of the deposited data

How the results depend on the processing

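All 36 recomputed values of the 3 unigenes and both stems stayed higher in black skin and past 2-fold, with log2 ratios from 1.23 to 2.23 over other pseudocounts, TMM or median-of-ratios scaling, totals without the 100 or the 2 most abundant unigenes and, for stems, other ways of joining unigenes. The totals without 2 were chosen after seeing the data. The 36 values are not independent, because ZP3 has 1 unigene and its stem values repeat those of c104631_g1. The other ways of joining left ZP3 at 2.08. Of these, only the most abundant unigene alone changed ZP4, from 1.69 to 1.57. The members were also chosen on these ratios. A pseudocount of 5 shrank the log2 ratios beyond their counting intervals by construction, to 1.62 for ZP3 (its unigene and its stem), 1.25 for c103799_g1, 1.23 for c105920_g1 and 1.46 for the ZP4 sum. The called unigenes (345 in both directions) were 1411 with a pseudocount of 0.1, 53 with 5, 638 without the 100 most abundant unigenes, 140 at a mean of at least 5, 13 at 4-fold and 195 by the interval rule. The called stems (35) were 86, 11, 20 and 3 with a pseudocount of 0.1, with 5, at a mean of at least 5 and at 4-fold. A lower pseudocount lets low genes pass and stricter rules fewer, by construction; for the totals without 100 the cause was not tested. No paired analysis was possible because each colour has 1 library. FOXL2 was called as higher in yellow skin without the 100 most abundant unigenes. With 1 library per colour, variation between fish is not measured, and counting error sets only a lower limit to the error.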

Other observations

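Genes annotated to fertilisation or the oocyte lay near the bulk of all genes. This list was drawn up after seeing the data, from Gene Ontology terms that name fertilization, the zona pellucida, oogenesis or the oocyte, without the ZP stems. It held 20 stems, of which 16 had a mean of at least 1 RPM. None was called, where 0.823% of all stems were called as higher in black and 0.137% as higher in yellow skin. Their median log2 ratio was 0.22 beside 0.21 over all stems, with a range of -0.52 to 0.46. Of the 16, 13 were above 0 as deposited, beside 2927 of all 3644 stems, and 8 with TMM scaling, beside 2038 of 3648. Most are general genes, such as FAK2, a focal adhesion kinase, at 354 RPM in black and 332 RPM in yellow skin, and TERA, an ATPase of protein turnover, at 352 and 318 RPM.

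Some members with a closer tie to the egg in fish or frogs were measured as well. YBX2A, a germ cell Y-box RNA-binding protein, was at 21.1 RPM in black and 17.2 RPM in yellow skin, a ratio of 1.22 (1.05 to 1.42). MPRGB, a membrane progestin receptor, was at 18.6 and 13.4 RPM, a ratio of 1.39 (1.17 to 1.64). Its relative MPRAB, which takes part in oocyte maturation in fish, had 82 reads in black and 91 in yellow skin, for a ratio of 0.976 (0.624 to 1.52). PLCB1, a phospholipase of egg activation and many other pathways, lay furthest toward yellow skin, where it was 1.51-fold higher (1.16 to 1.98). That ratio is of the sum of 5 unigenes, which did not all go the same way. Per coding kilobase, c137361_g1 was higher in black skin, at 0.997 RPM against 0.409 RPM in yellow skin. The unigene c99086_g1 differed little, at 4.11 and 4.62 RPM. YBX2A, MPRGB, MPRAB and PLCB1 were named after their values were seen.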
